A study of Mus musculus with 12 samples.

Results

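*Gas5* and 8 other genes that carry small nucleolar RNAs (snoRNAs) in their introns were followed in lymph node (LN) T cells of B6 and FlipFlop mice. The 8 others were *Snhg1*, *Snhg3*, *Snhg5*, *Snhg6*, *Snhg8*, *Snhg12*, *Snhg15* and *Zfas1*. Members were taken by gene symbol, and the set was chosen by the measured level of *Gas5*, which is lower in FlipFlop than in B6 libraries of these same data. The question was whether other snoRNA hosts share that fall. All 9 genes were found once among the 12809 genes of the deposited table, and all 9 passed the filter of at least 1 CPM (read counts relative to library size) in at least 3 libraries. In the whole table, 218 genes span an annotated snoRNA on their own strand, and 23 of these are not protein-coding.

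CD4 and CD8 T cells had been sorted by flow cytometry from LN of female mice, giving 4 groups of 3 libraries: both subsets of B6 mice (B6 CD4 and B6 CD8) and both subsets of FlipFlop mice (FlipFlop CD4 and FlipFlop CD8). In FlipFlop mice both coreceptor loci are altered in the germline: the *Cd8a* locus encodes CD4 protein (Cd8CD4 allele) and the *Cd4* locus encodes CD8αβ.1 protein (Cd4CD8 allele), so that a sorted FlipFlop CD4 T cell expresses its coreceptor from the *Cd8a* locus. B6 mice are C57BL/6 with unaltered loci. The Cd8CD4 allele was made in a 129R1 embryonic stem cell line, from which strain 129 segments remain in FlipFlop mice, and the labels give ages of 10 weeks (B6) and 14 weeks (FlipFlop), the latter above the age range that the methods give unless stated otherwise, so that coreceptor alleles, strain 129 segments and age cannot be told apart in any FlipFlop against B6 comparison. Neither the labels nor the methods say that the 3 libraries of a group came from separate mice, so p-values measure the spread between these libraries, which may be technical.

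The libraries held 26600000 to 33100000 reads on listed genes, and a count of 0 allows for up to 3 reads, or 0.0857 to 0.120 CPM, counting error only. All 9 T cell marker genes examined were in the table and above 0 in every library. Markers of other cells were low by comparison: the summed level of 7 B cell markers was 39.2 to 74.2 CPM over all libraries, of 5 listed myeloid markers 6.32 to 29.7 CPM, and of 4 listed red blood cell markers 6.67 to 28.8 CPM. The regulatory T cell markers, which mark a helper-lineage subset, summed to 342 to 408 CPM in B6 CD4 and 809 to 966 CPM in FlipFlop CD8 libraries but only to 59.5 to 66.8 CPM in the B6 CD8 group and 63.4 to 67.1 CPM in the FlipFlop CD4 group. These are bulk RNA measurements, in which fewer cells of a type and less RNA per cell cannot be told apart.

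A snoRNA host is transcribed as an ordinary RNA polymerase II gene, its exons are spliced together, and the snoRNAs are trimmed from the excised introns to guide modification or cleavage of ribosomal RNA. The spliced exons of many such hosts code for no conserved protein, begin with a stretch of pyrimidines like that of ribosomal protein mRNAs (a 5′ terminal oligopyrimidine tract), and are degraded by nonsense-mediated decay once ribosomes engage them. *Gas5*, growth arrest-specific 5, is the best known host in lymphocytes: its spliced RNA accumulates when growth stops and can bind the glucocorticoid receptor as a decoy. No gene of the deposited table is annotated as a snoRNA, so the values below are those of the host transcripts and not of the snoRNAs themselves.

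*Gas5* (ENSMUSG00000053332.13) lies on the plus strand at chr1:161034422-161038539 (GRCm38, GENCODE M21), with 25 annotated transcripts and 10 annotated snoRNA genes at 9 separate places within its span. Shown here are 3 named snoRNAs of *Gas5* and, for comparison, 1 of *Snhg5* and 1 of *Zfas1*, taken from GENCODE in DNA letters, because they are what these genes are known to produce besides the spliced RNA. Capitals mark the first TGATG, part of the C box, and the last CTGA, the D box, which together define the C/D class of snoRNAs that guide ribosomal RNA methylation. They lie on GRCm38 at chr1:161036984-161037049 (plus strand), chr1:161037601-161037681 (plus), chr1:161038082-161038158 (plus), chr9:88521529-88521600 (minus) and chr2:167065276-167065365 (plus), in the order printed.
Snord78 (Gas5): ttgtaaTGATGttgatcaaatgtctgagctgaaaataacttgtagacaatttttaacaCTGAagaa
Snord80 (Gas5): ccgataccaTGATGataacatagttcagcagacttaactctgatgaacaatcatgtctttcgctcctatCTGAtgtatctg
Snord47 (Gas5): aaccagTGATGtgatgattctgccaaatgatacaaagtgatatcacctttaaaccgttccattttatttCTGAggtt
Snord50a (Snhg5): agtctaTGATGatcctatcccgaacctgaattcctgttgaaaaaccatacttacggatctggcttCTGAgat
Snord12 (Zfas1): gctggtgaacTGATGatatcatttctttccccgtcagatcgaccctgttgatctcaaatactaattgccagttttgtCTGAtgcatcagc

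The transcription starts of the hosts were read from RefSeq promoter windows (GRCm38.p6), which matched 8 of the 9 genes by symbol, with 2 windows for *Gas5*. They are shown because a pyrimidine stretch at the start is the feature most often named as shared by these genes. Each line holds the 30 bases before the annotated start and 30 bases from it onward, and capitals mark a C followed by at least 4 further pyrimidines that begins within 20 bases of the start on the transcribed strand. The places are, in the order printed, chr1:161034571-161034630 (plus strand), chr1:161035136-161035195 (plus), chr19:8723457-8723516 (plus), chr4:132353657-132353716 (minus), chr9:88522868-88522927 (minus), chr3:123508307-123508366 (minus), chr4:132308648-132308707 (plus), chr11:6528731-6528790 (minus) and chr2:167062904-167062963 (plus).
Gas5, upstream start: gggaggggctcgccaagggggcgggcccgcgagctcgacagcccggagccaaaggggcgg
Gas5, downstream start: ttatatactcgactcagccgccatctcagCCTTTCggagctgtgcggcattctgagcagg
Snhg1: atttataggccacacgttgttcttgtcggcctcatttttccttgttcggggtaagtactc
Snhg3: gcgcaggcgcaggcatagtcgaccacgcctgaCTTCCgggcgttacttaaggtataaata
Snhg5: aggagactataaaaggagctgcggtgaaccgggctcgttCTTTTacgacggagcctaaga
Snhg8: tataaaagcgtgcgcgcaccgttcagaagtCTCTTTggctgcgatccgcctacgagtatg
Snhg12: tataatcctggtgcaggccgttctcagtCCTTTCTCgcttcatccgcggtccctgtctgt
Snhg15: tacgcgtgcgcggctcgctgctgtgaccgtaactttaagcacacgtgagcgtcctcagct
Zfas1: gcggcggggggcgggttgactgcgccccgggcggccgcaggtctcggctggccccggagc

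Such a stretch was found in 5 of the 9 windows, belonging to 5 members: *Gas5* (at its downstream start), *Snhg3*, *Snhg5*, *Snhg8* and *Snhg12*. It was also found in 48.2% of all 32817 distinct RefSeq promoter windows, which are not limited to genes of the deposited table, so these letters alone do not set the hosts apart. Among the members with a stretch, *Gas5*, *Snhg3*, *Snhg8* and *Snhg12* had negative strain differences and *Snhg5* a positive one. Not all of these passed the test, as described next. The part of the stretch in these differences was not tested.

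The level of *Gas5* was much lower in every FlipFlop library than in every B6 library. In B6 CD4 T cells it measured 115, 88.9 and 89.0 CPM in replicates 1 to 3, and in B6 CD8 T cells 128, 125 and 144 CPM. In FlipFlop CD4 T cells it measured 22.6, 17.2 and 17.7 CPM, and in FlipFlop CD8 T cells 15.7, 13.0 and 14.0 CPM. All 6 FlipFlop libraries lay below all 6 B6 libraries, with a wide gap between 22.6 and 88.9 CPM. The group means were 97.7 ± 15.1 CPM (CD4) and 132 ± 9.90 CPM (CD8) for B6 T cells, and 19.2 ± 2.98 CPM (CD4) and 14.2 ± 1.37 CPM (CD8) for FlipFlop T cells (SD, n = 3 each).

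On the log2(CPM + 0.5) scale, *Gas5* differed by -2.75 (SE 0.089) between FlipFlop and B6, averaged over both subsets, which is a 6.70-fold lower level. The difference was -2.32 (4.99-fold) in CD4 and -3.17 (9.02-fold) in CD8 T cells. Because *Gas5* was chosen for this pattern, these values are a description and carry no test. Its strain difference ranked sixth from the lowest among the 11595 tested genes, where 3.19% of genes have all 6 FlipFlop libraries below all 6 B6 libraries, and 0.0949% are lower by more than 5-fold at an unadjusted p under 0.05. The FlipFlop values rest on 393 to 689 reads per library, far above the floor of 3 reads. Leaving out each library in turn left the difference between -2.81 and -2.68. The span of the antisense gene *Zbtb37* overlaps that of *Gas5* by 428 bases, and their exons share 0 bases.

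**Figure D1:**
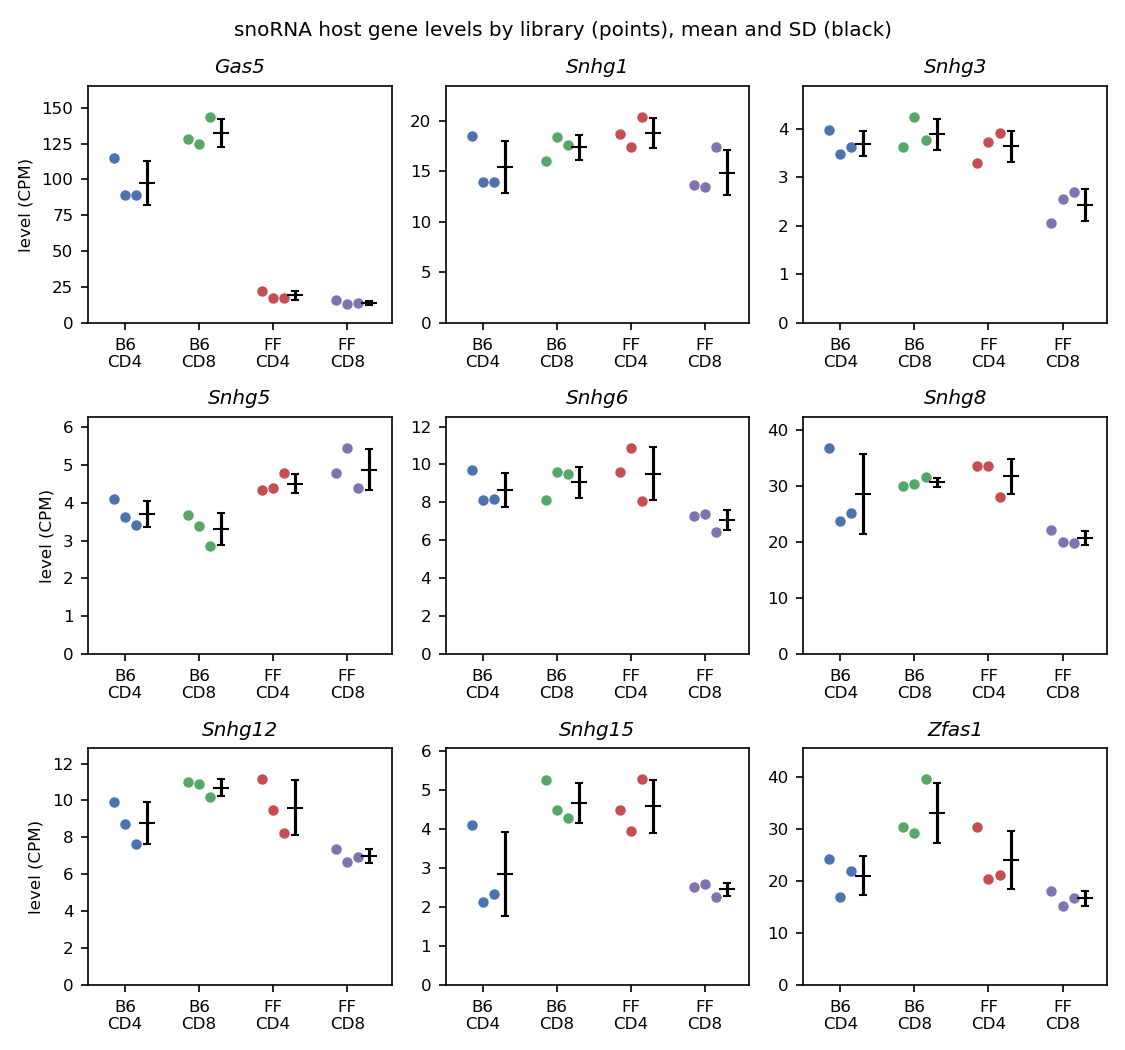
Level of each of the 9 host genes in CPM (linear axis from 0) in the 12 libraries. Points are libraries in the order of replicates 1 to 3 of each sorted subset of B6 and FlipFlop (FF) mice, and black marks are the mean and SD. *Gas5* is at or below 22.6 CPM in all 6 FF libraries and at or above 88.9 CPM in all 6 B6 libraries, whereas in no other panel are all 6 FF libraries below all 6 B6 libraries.

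None of the 8 other hosts fell to a like extent. Averaged over both subsets, *Snhg3* and *Zfas1* were lower in FlipFlop libraries, *Snhg5* was higher, and *Snhg1*, *Snhg6*, *Snhg8*, *Snhg12* and *Snhg15* did not pass the test (limma, adjusted p under 0.05 over all tested genes). The 2 lower calls of 8 stand beside 15.4% of all tested genes called lower, and the 1 higher call beside 15.8% called higher. The lowest bound of any 95% interval among the 8 was -0.65, that of *Zfas1*, against a *Gas5* value of -2.75.

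*Snhg5*, the host of the C/D snoRNAs Snord50a and Snord50b, went the opposite way to *Gas5*. It measured 4.10, 3.62 and 3.43 CPM in the B6 CD4 group and 3.67, 3.40 and 2.85 CPM in the B6 CD8 group. It measured 4.33, 4.39 and 4.79 CPM in FlipFlop CD4 and 4.79, 5.46 and 4.40 CPM in FlipFlop CD8 T cells. All 6 FlipFlop libraries lay above all 6 B6 libraries, as they do for 2.66% of all tested genes. The difference was 0.38 (SE 0.086, limma adjusted p = 0.00801), a 1.30-fold higher level, resting on 85 to 165 reads per library. The call held without each library in turn.

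*Zfas1*, the host of Snord12 and its relatives, is transcribed away from the 5′ end of *Znfx1*, with which it shares 82 exon bases on the opposite strand. Its levels were 24.2, 16.9 and 22.0 CPM in the B6 CD4 group and 30.4, 29.2 and 39.6 CPM in the B6 CD8 group. They were 30.4, 20.4 and 21.2 CPM in FlipFlop CD4 and 18.0, 15.2 and 16.7 CPM in FlipFlop CD8 T cells. The 2 strains overlapped: the 3 FlipFlop CD8 libraries and B6 CD4 replicate 2 were lowest, and the B6 CD8 libraries and FlipFlop CD4 replicate 1 were highest. The strain difference was -0.39 (SE 0.12, limma adjusted p = 0.0309), a 1.31-fold lower level. This call was lost without B6 CD4 replicate 1, B6 CD8 replicate 3, FlipFlop CD4 replicate 2 or 3, or FlipFlop CD8 replicate 2 or 3, with limma adjusted p up to 0.0748, and with the replicate number as a random block within strain (adjusted p = 0.060).

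*Snhg3* carries Snora73a and Snora73b, H/ACA-type snoRNAs needed for cleavage of the ribosomal RNA precursor. It measured 3.98, 3.49 and 3.61 CPM in the B6 CD4 group, 3.63, 4.24 and 3.78 CPM in the B6 CD8 group and 3.28, 3.73 and 3.90 CPM in the FlipFlop CD4 group. In FlipFlop CD8 T cells it measured 2.06, 2.55 and 2.69 CPM, below all other libraries. The strain difference was -0.30 (SE 0.086, limma adjusted p = 0.0216), and without B6 CD8 replicate 2 the adjusted p was 0.0568. *Snhg3* shares 135 exon bases with the protein-coding gene *Rcc1* on the same strand, so reads there could have been assigned to either gene.

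The remaining hosts did not pass the test between strains. *Snhg12*, which carries Snora16a, Snora44, Snora61 and Snord99, differed by -0.23 (limma adjusted p = 0.0588, 95% interval -0.41 to -0.043). Its call was gained without B6 CD4 replicate 3 or FlipFlop CD4 replicate 1, with adjusted p down to 0.0241. It was also gained with the replicate number as a fixed block over both strains (limma adjusted p = 0.0225), between which numbers did not pair libraries. *Snhg8*, the host of Snora24, differed by -0.19 (adjusted p = 0.142, interval -0.41 to 0.017), and *Snhg6*, the host of Snord87, by -0.11 (adjusted p = 0.353, interval -0.30 to 0.080). *Snhg15*, the host of Snora9, differed by -0.085 (adjusted p = 0.656, interval -0.38 to 0.21), the average of a rise in CD4 and a fall in CD8 T cells. *Snhg1*, which carries Snord22 and 7 further annotated snoRNA genes, differed by 0.030 (adjusted p = 0.821, interval -0.17 to 0.23). For each of these hosts the interval left out any fall larger than 0.41 on the log2 scale.

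These strain differences move with the scaling of the libraries. Without the TMM factor, a correction for library composition that is already in the deposited values, the median of all tested genes moved from -0.0052 to 0.10 in FlipFlop minus B6. None of the 8 other hosts was then called lower, with *Snhg3* at -0.21 (limma adjusted p = 0.104) and *Zfas1* at -0.28 (adjusted p = 0.0652), while *Snhg5* was still called higher. *Gas5* measured -2.63 in that scaling. Of all genes called, 49.5% were lower in the deposited scaling and 18.9% without the factor.

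A level per length of annotated exons allows the hosts to be ordered within a group. In B6 CD8 T cells *Snhg8* had 35.9 ± 0.993 and *Gas5* 35.2 ± 2.63 CPM per kb of exon (SD, n = 3), and these 2 did not differ beyond their spread. *Zfas1* followed with 11.3 ± 1.94, *Snhg6* with 7.91 ± 0.714 and *Snhg1* with 5.85 ± 0.408 CPM per kb. *Snhg12*, *Snhg3* and *Snhg15* lay at 4.45 ± 0.181, 3.94 ± 0.323 and 3.44 ± 0.375 CPM per kb, and *Snhg5* was lowest with 1.91 ± 0.242 CPM per kb. In FlipFlop CD8 T cells *Snhg8* still led with 24.3 ± 1.51 CPM per kb, whereas *Gas5* was at 3.79 ± 0.365 CPM per kb. There it lay below *Snhg6* at 6.16 ± 0.453, *Zfas1* at 5.68 ± 0.471 and *Snhg1* at 5.002 ± 0.754 CPM per kb. The length counts every annotated exon of a gene, used in these cells or not, so the order depends on the annotation.

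**Figure D2:**
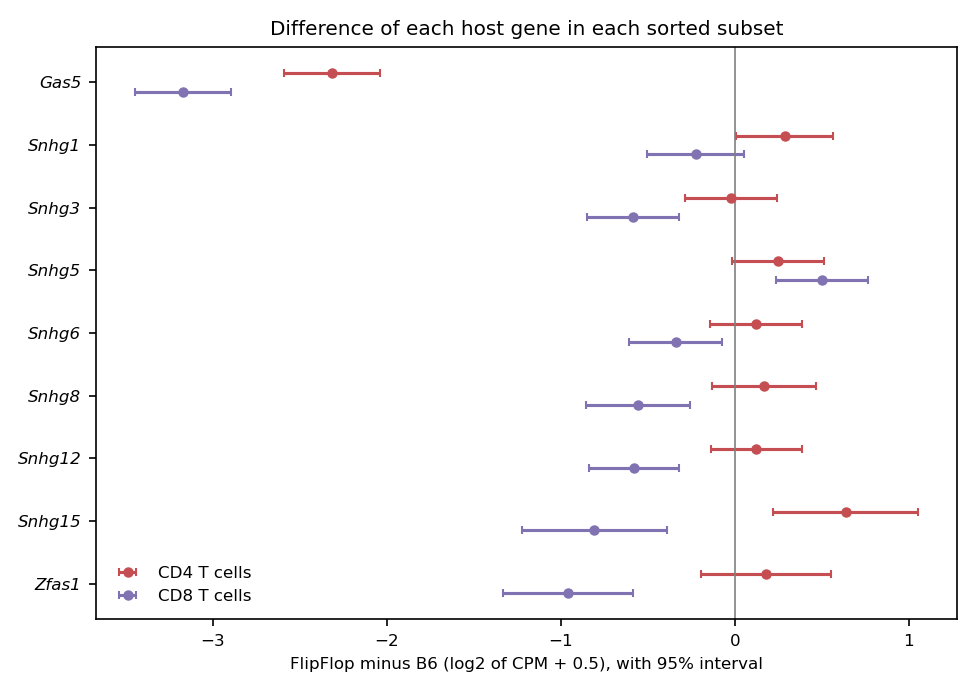
FlipFlop minus B6 difference on the log2(CPM + 0.5) scale for each host gene, in CD4 (red) and CD8 T cells (purple), with 95% intervals from limma. *Gas5* lies at -2.32 and -3.17, and the 8 other hosts lie between -0.96 and 0.64.

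The calls among the 8 other hosts were also counted in each sorted subset. In CD8 T cells, 6 of the 8 were lower in FlipFlop than in B6 libraries, namely *Snhg3*, *Snhg6*, *Snhg8*, *Snhg12*, *Snhg15* and *Zfas1*, beside 23.3% of all tested genes called lower. *Snhg5* was the 1 gene called higher, beside 21.3%. In CD4 T cells none of the 8 was called lower, beside 15.7% of all tested genes, and none had an unadjusted p under 0.05 with a negative difference. *Snhg15* was the 1 gene called higher there, beside 12.8%.

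In CD8 T cells the largest of these falls was that of *Zfas1*, -0.96 (SE 0.17, limma adjusted p = 0.000710), from 33.1 ± 5.69 to 16.6 ± 1.38 CPM. *Snhg15* followed with -0.81 (SE 0.19, adjusted p = 0.00452). *Snhg3*, *Snhg12* and *Snhg8* fell by 0.59, 0.58 and 0.56 on the log2 scale (limma adjusted p = 0.00202, 0.00195 and 0.00592). The smallest fall was that of *Snhg6*, -0.34 (adjusted p = 0.0392). Its call was lost without B6 CD8 replicate 2 or 3, FlipFlop CD4 replicate 1, or any of the 3 FlipFlop CD8 libraries, with adjusted p up to 0.137. *Snhg5* rose by 0.50 (SE 0.12, adjusted p = 0.00532), and *Snhg1* differed by -0.23 (adjusted p = 0.176, interval -0.51 to 0.055). Even the largest of these falls, 1.94-fold, was well short of the 9.02-fold difference of *Gas5*.

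The 3 FlipFlop CD8 libraries were the lowest of all 12 for *Snhg3*, *Snhg6*, *Snhg8* and *Snhg12*. How many of all tested genes share this order was not counted, and 23.3% of them were called lower in FlipFlop CD8 against B6 CD8. *Snhg8* measured 22.2, 20.04 and 19.9 CPM there, against 36.8, 23.8 and 25.3 CPM in the B6 CD4 group, 29.97, 30.4 and 31.6 CPM in the B6 CD8 group and 33.5, 33.6 and 28.1 CPM in the FlipFlop CD4 group. *Snhg6* ranged from 6.46 to 7.41 CPM in FlipFlop CD8 and from 8.07 to 10.9 CPM in the other groups. *Snhg12* ranged from 6.68 to 7.39 CPM in FlipFlop CD8 and from 7.66 to 11.2 CPM elsewhere. The summed level of 14 proliferation markers was 836 to 1036 CPM in FlipFlop CD8 and 720 to 845 CPM in the other groups. These ranges overlapped. In FlipFlop CD8 against B6 CD8, 7 of the 14 were called higher and 1 lower, beside 21.3% and 23.3% of all tested genes. In CD4 T cells 3 of the 14 were lower and none higher, beside 15.7% and 12.8% of all tested genes. Averaged over both subsets 1 was lower and 7 higher, beside 15.4% and 15.8%. In the CD8 comparison all 5 regulatory T cell genes (median 4.64) and 5 of 9 memory or effector genes were higher, beside 21.3% of all tested genes, and 5 of 8 naive T cell genes were lower, beside 23.3%. The part of these gene groups in the host differences was not tested. In the CD8 comparison the median of all tested genes was -0.023, and without the TMM factor it was 0.20. Of all genes called there, 52.3% were lower in the deposited scaling and 19.9% without the factor, and 5 of the 8 hosts were still lower, with *Snhg6* lost at adjusted p = 0.389.

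*Snhg15* was called in both subsets, higher in CD4 and lower in CD8 T cells. *Snhg1*, *Snhg6*, *Snhg8*, *Snhg12* and *Zfas1* also had positive differences in CD4 (0.12 to 0.29) and negative ones in CD8 T cells, but did not pass the test in CD4. *Snhg15* measured 4.10, 2.13 and 2.33 CPM in the B6 CD4 group, 5.25, 4.48 and 4.28 CPM in the B6 CD8 group, 4.50, 3.95 and 5.28 CPM in the FlipFlop CD4 group and 2.51, 2.58 and 2.26 CPM in FlipFlop CD8 T cells. The B6 CD8 and FlipFlop CD4 libraries were high, and the FlipFlop CD8 libraries and B6 CD4 replicates 2 and 3 were low. In CD4 T cells its FlipFlop minus B6 difference was 0.64 (SE 0.19, limma adjusted p = 0.0255). The call was lost without B6 CD4 replicate 2 or 3 or FlipFlop CD4 replicate 1 or 3, with adjusted p up to 0.0973, and in a fit of the 6 CD4 libraries alone (adjusted p = 0.0948).

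B6 CD4 replicate 1 stood apart from the other B6 CD4 libraries in several hosts, with 36.8 CPM of *Snhg8* against 23.8 and 25.3, and 18.4 CPM of *Snhg1* against 13.9 in both others. Without it, 3 of the 8 hosts were called higher in FlipFlop CD4 than in B6 CD4 T cells: *Snhg15*, *Snhg8* (0.36, limma adjusted p = 0.0108) and *Snhg1* (0.42, adjusted p = 0.0209). *Snhg8*, like *Snhg15*, was then called in opposite directions in the 2 subsets. The *Gas5* strain difference without it was -2.68. This library was singled out after its values were seen. Without it, 3207 of all tested genes were called in FlipFlop CD4 minus B6 CD4 over both directions, against 3296 in the main fit. Their shares by direction were not counted.

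Whether a strain difference itself differed between CD4 and CD8 T cells was tested by the interaction, the FlipFlop minus B6 difference in CD4 minus that in CD8. By construction it sets B6 CD8 and FlipFlop CD4 T cells against B6 CD4 and FlipFlop CD8 T cells, the pairs that the regulatory T cell markers also separate. It was positive and passed the test for 7 of the 9 members, beside 19.4% of all tested genes, and negative for none, beside 19.9%. *Snhg15* had the largest value, 1.44 (SE 0.27, limma adjusted p = 0.000975), followed by *Zfas1* with 1.14 (SE 0.24, adjusted p = 0.00250). For *Gas5*, whose interaction was not used to choose it, the value was 0.85 (SE 0.18, adjusted p = 0.00216), so its fall was larger in CD8 than in CD4 T cells.

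*Snhg8* and *Snhg12* had interactions of 0.73 and 0.70 (limma adjusted p = 0.0103 and 0.00545). *Snhg3* had 0.57 (adjusted p = 0.0203), lost without B6 CD8 replicate 2 or FlipFlop CD8 replicate 1, with adjusted p up to 0.0554. *Snhg1* had 0.51 (adjusted p = 0.0415), lost in 8 of the 12 fits that leave out 1 library, with adjusted p up to 0.102; it was kept without B6 CD4 replicate 1, B6 CD8 replicate 1, FlipFlop CD4 replicate 2 or FlipFlop CD8 replicate 3. *Snhg6* had 0.46 (adjusted p = 0.0509), and with the replicate number as a block the adjusted p was 0.0454 (fixed over both strains) or 0.0224 (random within strain). Its call was also gained without B6 CD4 replicate 1, B6 CD8 replicate 1 or FlipFlop CD4 replicate 3, with adjusted p down to 0.0171. *Snhg5* had -0.25 (adjusted p = 0.283, interval -0.62 to 0.12). Without the TMM factor the median of all tested genes moved from 0.051 to -0.19, the share of lower calls from 50.6% to 75.6%, and 5 members were called, with *Snhg1* and *Snhg3* lost (adjusted p = 0.274 and 0.149).

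None of the 9 members passed the test between CD4 and CD8 T cells when both strains were averaged. In limma 0 of 9 were called in either direction, beside 3.78% of all tested genes called lower and 1.71% called higher. At an unadjusted p under 0.05, *Snhg3* (0.22) and *Snhg8* (0.24) were higher in CD4 libraries. *Gas5* differed by -0.017 (limma adjusted p = 0.940, interval -0.21 to 0.18).

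Within each strain some hosts passed the test between CD4 and CD8 T cells. In B6 mice 3 of 9 members were lower in CD4 than in CD8 T cells, beside 10.8% of all tested genes, and none was higher, beside 14.6%. They were *Snhg15* (-0.67, limma adjusted p = 0.0215), *Zfas1* (-0.64, adjusted p = 0.0150) and *Gas5* (-0.44, adjusted p = 0.0208). *Gas5* lost its call without B6 CD4 replicate 2 or 3 or B6 CD8 replicate 3, with adjusted p up to 0.0852. *Zfas1* lost it without B6 CD4 replicate 2 or B6 CD8 replicate 3, up to 0.0703. *Snhg15* lost it without B6 CD4 replicate 2 or 3 or B6 CD8 replicate 1 or 2, up to 0.0910, and in a fit of the 6 B6 libraries alone (adjusted p = 0.0723). None of the 9 was called without B6 CD4 replicate 2. Without B6 CD4 replicate 1, 5 members were called lower, adding *Snhg8* (-0.32, adjusted p = 0.0205) and *Snhg12* (-0.37, adjusted p = 0.0431). Over both directions, 3198 of all tested genes were called in that fit, against 2944 in the main fit. *Snhg12* was also called with either replicate block, fixed over both strains or random within strain (-0.28, adjusted p = 0.0473).

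In FlipFlop mice 7 of 9 members were higher in CD4 than in CD8 T cells, beside 15.3% of all tested genes, and none was lower, beside 16.0%. *Gas5*, *Snhg15* and *Zfas1* were thus called in both strains, in opposite directions by surface coreceptor. In each strain they were higher in the subset that the paper assigns to the cytotoxic lineage, B6 CD8 and FlipFlop CD4 T cells. *Snhg15* differed by 0.78 (limma adjusted p = 0.00786), *Snhg8* by 0.60 (adjusted p = 0.00520) and *Snhg3* by 0.50 (adjusted p = 0.00733). *Gas5* differed by 0.41 (adjusted p = 0.0264), a call lost without FlipFlop CD4 replicate 1 or FlipFlop CD8 replicate 2 or 3, with adjusted p up to 0.115. *Zfas1* differed by 0.49 (adjusted p = 0.0457), *Snhg12* by 0.42 (adjusted p = 0.0174) and *Snhg6* by 0.40 (adjusted p = 0.0253). These calls were lost in fits with 1 library fewer, in which the differences stayed positive. That of *Snhg12* was lost without FlipFlop CD4 replicate 1 or FlipFlop CD8 replicate 2 or 3, with differences of 0.32 to 0.42 and limma adjusted p up to 0.0798. That of *Snhg6* was lost without FlipFlop CD4 replicate 1 or 2 or FlipFlop CD8 replicate 3, with differences of 0.30 to 0.39 and adjusted p up to 0.112. That of *Zfas1* was lost in 7 of the 12 fits that leave out 1 library, among them each FlipFlop CD8 library, with differences of 0.32 to 0.55 and adjusted p up to 0.191, and in a fit without the trend (adjusted p = 0.0578).

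With the replicate number as a random block within strain, *Snhg1* also passed in this comparison (0.34, limma adjusted p = 0.0304, against 0.0657 without the block). Without the TMM factor 2 of the 9 members were called, *Snhg8* and *Snhg15*, while the median of all tested genes moved from 0.036 to -0.14 and the share of lower calls from 51.0% to 79.2%. *Gas5* then differed by 0.24 (adjusted p = 0.114).

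**Figure D3:**
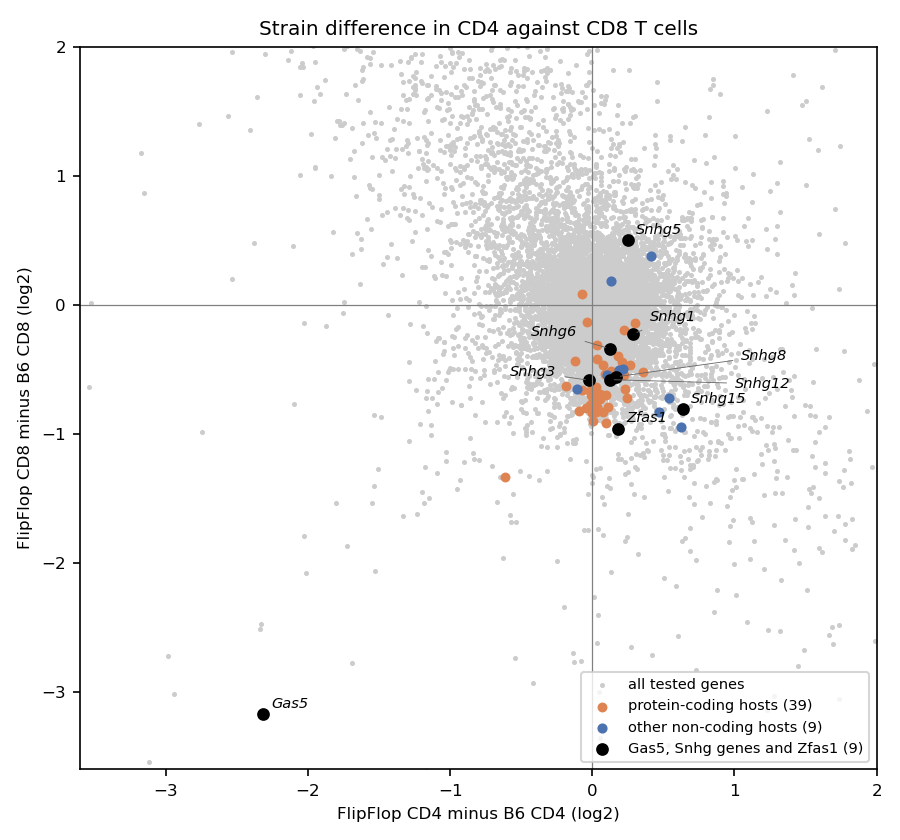
FlipFlop minus B6 difference (log2) in CD4 T cells (x axis) against that in CD8 T cells (y axis) for all tested genes (grey), 39 protein-coding snoRNA hosts of a hand-made list (orange), 9 other annotated hosts that are not protein-coding (blue) and the 9 members (black). Most of the hosts drawn in color lie near 0 on the x axis and below 0 on the y axis. Over all 192 tested protein-coding hosts by annotation, the median on the y axis is -0.13, against -0.67 for the hand-made list. *Gas5* lies at -2.32 and -3.17, and 471 genes outside the range -3.6 to 2 are not drawn.

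Other snoRNA hosts of the table were counted in the same comparisons. Of 14 further annotated hosts that are not protein-coding, 9 were tested, and in FlipFlop minus B6 1 was lower and 1 higher, with a median of -0.16 against -0.0052 for all tested genes, of which 15.4% were lower and 15.8% higher. The called ones were *Cct6a*, a chaperonin subunit gene annotated as a processed transcript in this release, at -0.38 (limma adjusted p = 0.000164), and *Snhg17* at 0.40 (adjusted p = 0.0248). In CD8 T cells 7 of the 9 were called lower and none higher, beside 23.3% and 21.3% of all tested genes, and in CD4 T cells none lower and 3 higher, beside 15.7% and 12.8%. Of the 14 non-coding hosts of a hand-made list, 4 were in the table and 3 were tested.

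Protein-coding hosts of that hand-made list are mostly genes for ribosomal proteins and translation factors. Of 39 tested, 26 were lower and none higher in FlipFlop minus B6, beside 15.4% and 15.8% of all tested genes, with a median of -0.32. The largest falls were those of *Rps2*, a protein of the small ribosomal subunit, at -0.97 (limma adjusted p = 9.27e-06), and *Rpl5*, of the large subunit, at -0.46 (adjusted p = 0.00808). In CD8 T cells 36 of the 39 were lower, beside 23.3%, with a median of -0.67. In CD4 T cells 1 was lower and 5 were higher, beside 15.7% and 12.8%, with a median of 0.033. In the interaction, 34 of the 39 were positive and passed the test, beside 19.4% of all tested genes. Among all 192 tested protein-coding genes that span an annotated snoRNA, 53 were lower and 34 higher between strains, beside 15.4% and 15.8%, so that the share of higher calls is near the background. Of these 192, 79 were lower and 27 higher in CD8 T cells (median -0.13, beside 23.3% and 21.3%), 17 lower and 31 higher in CD4 T cells, and in the interaction 75 calls were positive and 24 negative (median 0.23 against 0.73 in the hand-made list). The largest rises there were those of *Eng* (1.10), *Cep55* (0.85) and *Frmd4b* (0.84), and the largest falls besides *Rps2* and *Rpl5* that of *Mfsd13a* (-0.95). None of these named genes reached the difference of *Gas5*.

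The machinery on which hosts and snoRNAs depend was also examined. Of 17 snoRNP proteins and assembly factors, which build the particle around a snoRNA, 8 were lower and none higher in FlipFlop minus B6, beside 15.4% and 15.8% of all tested genes, with a median of -0.16. The largest falls were those of *Nhp2* (-0.34) and *Nop10* (-0.30), both subunits of H/ACA particles. In CD8 T cells 12 of 17 were lower, beside 23.3%, and in CD4 T cells 3 were higher, beside 12.8%, and none lower.

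Of 19 genes of nonsense-mediated decay, the route that degrades spliced host RNA, 3 were lower and 5 higher between strains, with a median of 0.0064. Beside 15.4% and 15.8% of all tested genes, the share of lower calls is near the background. The largest falls were those of *Pnrc2* (-0.84), a decay adaptor, and *Rnps1* (-0.83), which binds spliced exon junctions. The largest rises were those of *Smg1* (0.68), the kinase of UPF1, and *Upf2* (0.28). Among 9 genes of the glucocorticoid receptor and its targets, *Sgk1* was lower (-0.33) and 3 were higher, beside the same shares, led by *Zbtb16* (1.72) and *Dusp1* (0.70). *Nr3c1*, the receptor itself, differed by 0.17 (limma adjusted p = 0.183). *Zbtb16* is listed at 0 in 5 of the 12 libraries, so its value depends on the added 0.5 CPM.

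Genes around *Gas5* had smaller strain differences than *Gas5* when both subsets were averaged, but not all of them did in CD4 T cells alone. Within 1 Mb of its start lie the starts of 16 other listed genes, of which 14 were tested. In FlipFlop minus B6, *Mrps14* (-0.53, limma adjusted p = 0.000342) and *4930523C07Rik* (-0.27, adjusted p = 0.000661) were lower. *Rabgap1l* (0.42, adjusted p = 0.00216) was higher. In CD4 T cells 5 of the 14 were lower and 1 higher, beside 15.7% and 12.8% of all tested genes. Of the same 14, 4 were lower and 7 higher in CD8 T cells, beside 23.3% and 21.3%. *Fasl*, the gene of the death ligand FasL, was chosen after its values were seen: it differed by -2.53 in CD4 (limma adjusted p = 3.30e-07), beside -2.32 for *Gas5*, and by 1.96 in CD8 T cells (adjusted p = 1.53e-06), which average to -0.28. The nearest starts on either side are those of *Serpinc1*, 55.8 kb upstream, at 0.23 (adjusted p = 0.135), and *Zbtb37*, 0.427 kb downstream on the opposite strand, at 0.24 (adjusted p = 0.223). *Serpinc1*, the antithrombin gene, was also lower in CD4 (-1.25, adjusted p = 8.85e-05) and higher in CD8 T cells (1.71, adjusted p = 3.43e-06). On average *Zbtb37* measured 21.7 CPM (CD4) and 16.9 CPM (CD8) in B6 and 18.7 CPM (CD4) and 27.1 CPM (CD8) in FlipFlop T cells, an order unlike that of *Gas5*.

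**Figure D4:**
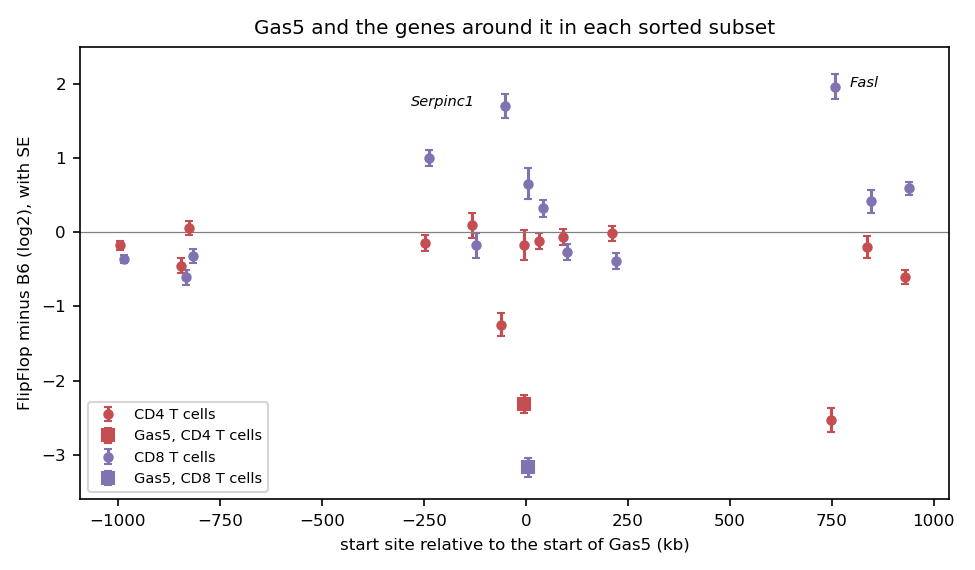
FlipFlop minus B6 difference (log2, bars are SE) in CD4 (red) and CD8 T cells (purple) of *Gas5* (squares) and 13 of the 14 tested genes whose start lies within 1 Mb of its start (circles), against distance in kb, with the 2 subsets shifted slightly apart sideways. *Gas5* is low in both subsets (-2.32 and -3.17), whereas *Fasl* (-2.53 and 1.96) and *Serpinc1* (-1.25 and 1.71) go opposite ways.

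Across the 12 libraries, the genes whose log2 level followed that of *Gas5* most closely included 4 that span no annotated snoRNA on their own strand and lie on other chromosomes. They were *Zbtb8a* on chromosome 4 (Pearson r = 0.991), *Gm43778* on chromosome 5 (0.989), *Mrpl1* on chromosome 5 (0.986) and *Rnps1* on chromosome 17 (0.984). The FlipFlop minus B6 differences of *Zbtb8a*, *Mrpl1* and *Rnps1* were -3.01, -0.95 and -0.83 on the log2 scale. *Gm43778* averaged 1.28 CPM (CD4) and 1.34 CPM (CD8) in B6 T cells, but 0.034 CPM in the FlipFlop CD4 group and 0 in the FlipFlop CD8 group, under the floor of 3 reads, so no difference is given. Its r depends in the FlipFlop libraries on the added 0.5 CPM. The 12 points fall into 2 strains between which these genes and *Gas5* differ, so r is given as a description. Among the members, r with *Gas5* was highest for *Snhg3* (0.654), *Zfas1* (0.633) and *Snhg12* (0.607), was 0.474 for *Snhg8*, 0.382 for *Snhg6*, 0.256 for *Snhg15* and 0.0525 for *Snhg1*, and was negative for *Snhg5* (-0.872).

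Markers of other cells moved with strain too, often not alike in the 2 subsets. In CD4 T cells, where 15.7% of all tested genes were lower and 12.8% higher, 4 of the 7 B cell markers, 4 of the 5 listed myeloid markers and 3 of the 4 listed red blood cell markers were lower, and 1 B cell marker was higher. In CD8 T cells, where 23.3% were lower and 21.3% higher, 1 B cell marker and 2 red blood cell markers were lower and 1 myeloid marker was higher. Of the 2 tested NK cell markers, 1 was lower in CD4 and 1 higher in CD8 T cells. All 5 regulatory T cell genes were lower in FlipFlop CD4 (median -2.20) and higher in FlipFlop CD8 T cells, and averaged over both subsets 4 were higher. Of 9 memory or effector genes, 4 were lower and 2 higher in CD4, and none lower and 5 higher in CD8 T cells. Of 8 naive T cell genes, 2 were higher in CD4 and 5 lower in CD8 T cells. Of the 9 T cell genes, 2 were lower and 2 higher in CD4, and 5 lower and 2 higher in CD8 T cells. The part of these markers in the host differences was not tested. *Cd14*, *Adgre1*, *Ncr1*, *Klra8* and *Alas2*, defining markers of myeloid, NK and red blood cells, are not among the listed genes.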

How the data were processed

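The data are RNA sequencing of sorted LN T cells. The authors extracted RNA, amplified cDNA with a low-input kit, sequenced paired-end reads and, per the methods, aligned them to mm10 with STAR, whereas the submitters' processing notes name Trimmomatic and TopHat. The counting program, annotation and low-value filter are not given in the sources used here. The deposited values are a signal: CPM to which the TMM factor of the library has already been applied. Of the values under 100 CPM, 85.6% to 87.0% came out as whole reads (tolerance 0.02), less than the 95% required for a test on reads.

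A gene was tested if it reached 1 CPM in 3 or more of the 12 libraries (11595 tested, 1214 left out). Values of log2(CPM + 0.5) went into limma 3.58.1 in R 4.3.3 (lmFit, eBayes with trend, 1 mean per group, 8 residual degrees of freedom). P-values were adjusted by Benjamini-Hochberg over all tested genes, and a gene was called at an adjusted p under 0.05. All 12809 identifiers matched GENCODE M21, and 0 columns were left unused. Members, gene lists and tests were chosen with earlier results of these data known. All members, the 2 largest called changes of each pathway list, the 3 largest of protein-coding hosts, called neighbors of *Gas5* and the 5 genes most like *Gas5* are named, except for some that are not reported here, and cell marker lists are given as counts. Alternatives were pseudocounts of 0.1 and 1, 2 other filters, 2 scalings, no trend, fits of 6 libraries, a fixed or random replicate block, a limit of 5-fold, and each library left out. The fit was tested on simulated data. Same-numbered CD4 and CD8 libraries had correlated deviations in FlipFlop mice (0.44, 0.27 and 0.51) but not in all B6 pairs (0.18, 0.089 and 0.35), and numbers were taken to pair libraries where all 3 correlations exceeded 0.1, so they pair the former only. The main fit has no block. The fixed block gives a replicate number the same effect in both strains. Same-numbered B6 and FlipFlop libraries did not all correlate above 0.1 (CD4 0.15, 0.093 and 0.29, CD8 0.075, 0.16 and 0.13), so calls under that block are not paired results. Figures were drawn with matplotlib.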

Additional observations from a re-analysis of the deposited data

Results flagged for a closer look

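For 7 genes the FlipFlop minus B6 difference was itself different between CD4 and CD8 T cells (interaction in limma, adjusted p under 0.05), which is why they are listed here. The CD4 value minus the CD8 value was 0.85 for *Gas5*, 0.51 for *Snhg1*, 0.57 for *Snhg3*, 0.73 for *Snhg8*, 0.70 for *Snhg12*, 1.44 for *Snhg15* and 1.14 for *Zfas1*. All are positive, so each of these genes was relatively lower in FlipFlop CD8 than in FlipFlop CD4 T cells when each was set against its B6 counterpart. *Gas5* was below B6 in both subsets, whereas *Snhg15* was called above B6 in CD4 and below B6 in CD8 T cells. With 3 libraries in each group, no formal outlier test was applied.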

How the results depend on the processing

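The *Gas5* strain difference kept its sign and size under every alternative run, from -2.81 to -2.63. Counts of called members are small and moved easily. In FlipFlop minus B6, the 2 lower calls became 3 with a fixed replicate block and 1 with a random replicate block (*Zfas1* adjusted p = 0.060), 1 among genes averaging at least 5 CPM, 0 without the TMM factor, and 1 to 3 without single libraries; the 1 higher call was lost among genes averaging at least 5 CPM, a filter that does not test *Snhg5*. In FlipFlop CD4 minus B6 CD4, 0 to 3 were called higher without single libraries and 0 under that filter or with 6 libraries. In FlipFlop CD8 minus B6 CD8 the 6 lower calls became 4 under that filter, which also tests neither *Snhg3* nor *Snhg15* and left 0 called higher. The 7 interaction calls ranged from 5 to 8 over single libraries and other settings. In B6 CD4 minus CD8, 0 to 5 were lower, and 4 with either replicate block; in FlipFlop CD4 minus CD8, 3 to 8 were higher without single libraries, 4 under the 5 CPM filter, 2 without the TMM factor, and 8 with a random replicate block. With a limit of over 5-fold and an unadjusted p under 0.05, every one of these counts was 0. The replicate block moved no other count of members by more than 1.5 times. Over all tested genes, the 3615 calls of FlipFlop minus B6 became 2328 with a random replicate block and 2367 without FlipFlop CD8 replicate 3, and the 636 of CD4 minus CD8 became 1179 with that block, 301 under the 5 CPM filter, and 352 to 414 without B6 CD8 replicate 2 or 3, FlipFlop CD4 replicate 2, or FlipFlop CD8 replicate 1 or 2, so the background shares move too.

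Of single differences, 9 changed sign, each close to 0: without single libraries *Snhg1* between strains ranged from -0.028 to 0.096, *Snhg15* between strains from -0.16 to 0.040 and *Snhg3* in CD4 T cells from -0.066 to 0.044, and without the TMM factor *Snhg1* in CD8 T cells was 0.0021, *Snhg6* in B6 0.0017 and *Snhg15* between strains 0.012. Of the others, 67 lost and 19 gained a call, and *Gas5* in CD8 moved to -2.94 without the TMM factor. The fewest reads stood behind *Snhg3*, *Snhg5* and *Snhg15*, 64 to 165 per library. Apart from members that the 5 CPM filter does not test, the causes were not tested. Under that filter *Zfas1* in FlipFlop CD4 minus CD8, which it does test, had an adjusted p of 0.0506 with the same difference.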
